A study of Homo sapiens with 6 samples.

Results

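The RBM genes examined here are those whose symbol is RBM followed by a number and at most 1 capital letter, such as RBM5 or RBM15B. RBM39 and RBM23 were left out. Of 56303 genes in the count table, 36 fit this rule. The rule reads only the symbol and no measured value, but it was set with earlier results of these data known. They were measured in SW480, an established human colon adenocarcinoma cell line. Of the 6 libraries, 3 came from cells with a non-silencing hairpin (shCtrl, genotype labelled WT) and 3 from cells with a hairpin against RBM39 (shRBM39, genotype labelled RBM39 knockdown). RBM39 is a splicing factor, and the study asked which transcripts change when it is depleted. Both hairpins were delivered by lentivirus, and the cells were stable clonal lines kept after puromycin selection. The study's methods describe replicate experiments for each group, but the number of clones behind the libraries was not given in the sources used here, so p-values measure the spread between these experiments, and a difference between clones cannot be told apart from the effect of the hairpin.

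RBM proteins bind RNA mostly through RNA recognition motifs, but the shared name marks a domain and not a pathway. Some members recognise splice sites or sit inside the spliceosome. Others belong to the exon junction complex, the nuclear RNA decay machinery, the complex that writes N6-methyladenosine (m6A) on mRNA, or the nucleolus. A further set is restricted to tissues such as heart, muscle, brain or germ cells.

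The libraries held between 18042924 and 20428901 counts. RBM39 itself was at 441, 448 and 435 CPM (counts scaled to library size by the trimmed mean of M values, TMM) in shCtrl and at 266, 276 and 292 CPM in shRBM39, with no overlap. Its log2 fold change was -0.67 with a standard error (SE) of 0.04, with an edgeR adjusted p of 1.24e-16. The epithelial markers EPCAM, KRT8, KRT18 and VIL1 averaged at least 591 CPM in both groups, KRT20 and CDH17 were at most 2.71 CPM on average, and CDX2 averaged 21.7 CPM in shCtrl and 4.95 CPM in shRBM39. The leukocyte marker PTPRC had 0 counts in all 6 libraries, while COL1A1 and PECAM1, markers of fibroblasts and endothelium, rose from 5.57 to 9.80 CPM and from 3.36 to 5.82 CPM. EPCAM overlapped between the groups (log2 fold change 0.02). Apart from EPCAM and PTPRC, these markers moved with the groups compared below, without overlap. Their part in the RBM results was not tested.

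The sequences that bear on the results are shown first. The splicing table listed 1 cassette exon each for RBM33 and RBM11, and these are the exons whose inclusion is described below. They are given on the plus strand of hg38 with 20 bases of the intron before and 10 bases of the intron after. Capitals mark the AG of the 3′ splice site and the GT of the 5′ splice site.
RBM33 exon, chr7:155763792-155764028: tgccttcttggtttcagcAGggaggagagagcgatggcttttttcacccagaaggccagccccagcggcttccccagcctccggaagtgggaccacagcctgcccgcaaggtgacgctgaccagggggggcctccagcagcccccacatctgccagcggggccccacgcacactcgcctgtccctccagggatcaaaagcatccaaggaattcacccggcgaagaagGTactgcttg
RBM11 exon, chr21:14219543-14219735: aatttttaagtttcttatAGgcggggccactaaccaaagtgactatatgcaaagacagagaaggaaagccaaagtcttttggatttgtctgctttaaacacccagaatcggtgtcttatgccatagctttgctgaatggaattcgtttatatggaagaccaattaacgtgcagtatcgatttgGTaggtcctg
The RBM33 exon itself (chr7:155763812-155764018) has 207 bases and is exon 15 of 18 in a GENCODE v44 transcript, and the RBM11 exon (chr21:14219563-14219725) has 163 bases and is exon 2 of 5. Both are coding over their full length. The length of the RBM33 exon is a multiple of the codon length and that of the RBM11 exon is not.

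Promoters are shown for RBM20, which had the largest fall among the tested members, and for the 3 members whose promoter held the letters CACGTG, the E-box bound by the MYC and MAX family. The motif was chosen with the results known. It is its own reverse complement, so both strands are covered by a single search, and it is in capitals. The sequences are RefSeq's (GRCh38.p14), from 250 bases before to 50 bases after the gene start, written in the direction of the gene. RefSeq's start can differ from the first exon base of the count table's annotation.
RBM20, chr10:110644086-110644385, plus strand: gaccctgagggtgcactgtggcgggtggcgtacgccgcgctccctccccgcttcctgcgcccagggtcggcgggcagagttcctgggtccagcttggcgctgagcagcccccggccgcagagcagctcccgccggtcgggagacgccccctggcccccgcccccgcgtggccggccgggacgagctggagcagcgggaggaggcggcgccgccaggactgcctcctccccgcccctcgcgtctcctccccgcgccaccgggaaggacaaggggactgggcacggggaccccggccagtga
RBM15B, chr3:51391035-51391334, plus strand: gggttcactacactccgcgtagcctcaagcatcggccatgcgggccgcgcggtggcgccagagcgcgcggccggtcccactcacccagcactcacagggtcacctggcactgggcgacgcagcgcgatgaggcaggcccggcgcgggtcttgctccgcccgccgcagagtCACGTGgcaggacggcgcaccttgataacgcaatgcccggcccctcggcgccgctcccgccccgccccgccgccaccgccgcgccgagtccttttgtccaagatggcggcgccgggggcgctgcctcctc
RBM15, chr1:110339127-110339426, plus strand: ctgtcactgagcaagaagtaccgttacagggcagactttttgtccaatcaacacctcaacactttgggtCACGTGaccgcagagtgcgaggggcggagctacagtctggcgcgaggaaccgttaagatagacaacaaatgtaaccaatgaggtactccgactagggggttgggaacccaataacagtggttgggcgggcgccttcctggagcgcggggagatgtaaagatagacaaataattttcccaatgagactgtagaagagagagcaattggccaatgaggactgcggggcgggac
RBM19, chr12:113966276-113966575, minus strand: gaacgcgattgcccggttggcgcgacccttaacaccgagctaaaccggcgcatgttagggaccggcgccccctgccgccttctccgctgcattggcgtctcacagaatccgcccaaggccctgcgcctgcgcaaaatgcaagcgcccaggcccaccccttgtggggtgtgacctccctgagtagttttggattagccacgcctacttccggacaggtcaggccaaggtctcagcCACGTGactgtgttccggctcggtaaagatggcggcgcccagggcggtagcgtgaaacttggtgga
A promoter was matched for 32 of the 36 members. CACGTG was in 3 of these and in 7.26% of all 35116 promoters of the table. It was not in the RBM20 window, which has a GC content of 77.7%. Of the 3 members with the motif, RBM15B and RBM19 were higher in shRBM39 and RBM15 was not called, with the values given below. A match to these letters is a description and does not show binding.

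The levels of the members, compared per kilobase of merged exons (RPKM, the TMM-scaled CPM divided by the length), spanned several orders of magnitude in SW480 cells. RBM10, a regulator of alternative exons, stood highest in shCtrl at 55.7 ± 0.635 RPKM (SD, n = 3), above RBM25, a partner of the U1 snRNP, at 49.0 ± 1.62 RPKM. RBM6 followed at 40.3 ± 0.704 RPKM. RBM34 at 37.6 ± 0.257, RBM3 at 35.9 ± 0.813, RBM42 at 35.6 ± 1.65 and RBM17 at 34.7 ± 0.803 RPKM came next, and of these neighbours RBM3 and RBM42, and RBM42 and RBM17, lay within each other's spread. RBM8A (32.6 ± 0.180), RBM4 (25.4 ± 0.752) and RBM5 (21.3 ± 0.247 RPKM) completed the 10 members above 20 RPKM. Spliceosomal and splice site factors made up 6 of these 10. In CPM, without the length, RBM25 ranked 1 and RBM10 ranked 5. RBM10 shares 16.4% of its exon bases with NDUFB11 on the opposite strand, which was at 94.3 RPKM in shCtrl. How reads from this stretch were counted is not known, and its part in the rank of RBM10 was not tested.

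At the other end, 5 members were under 1 RPKM in shCtrl. RBM46, a germ cell gene, had 0 counts in each library. RBM44, also known from the germ line, had 4, 1 and 0 counts in shCtrl and 0, 1 and 0 in shRBM39. RBM11, known from brain and testis, had 9, 5 and 9 counts in shCtrl and 8, 8 and 10 in shRBM39. RBM24, a muscle splicing factor, had 5, 4 and 5 counts against 8, 12 and 8. These 4 were too low to be tested. The fifth, RBM43, entered the test only through its higher counts in shRBM39 and is described below. RBM20, whose best known site of action is the splicing of titin in heart muscle, was by contrast at 10.1 ± 0.345 RPKM in shCtrl, close to RBM14 (10.6 ± 0.640 RPKM) and RBM38 (10.0 ± 1.44 RPKM).

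**Figure D1:**
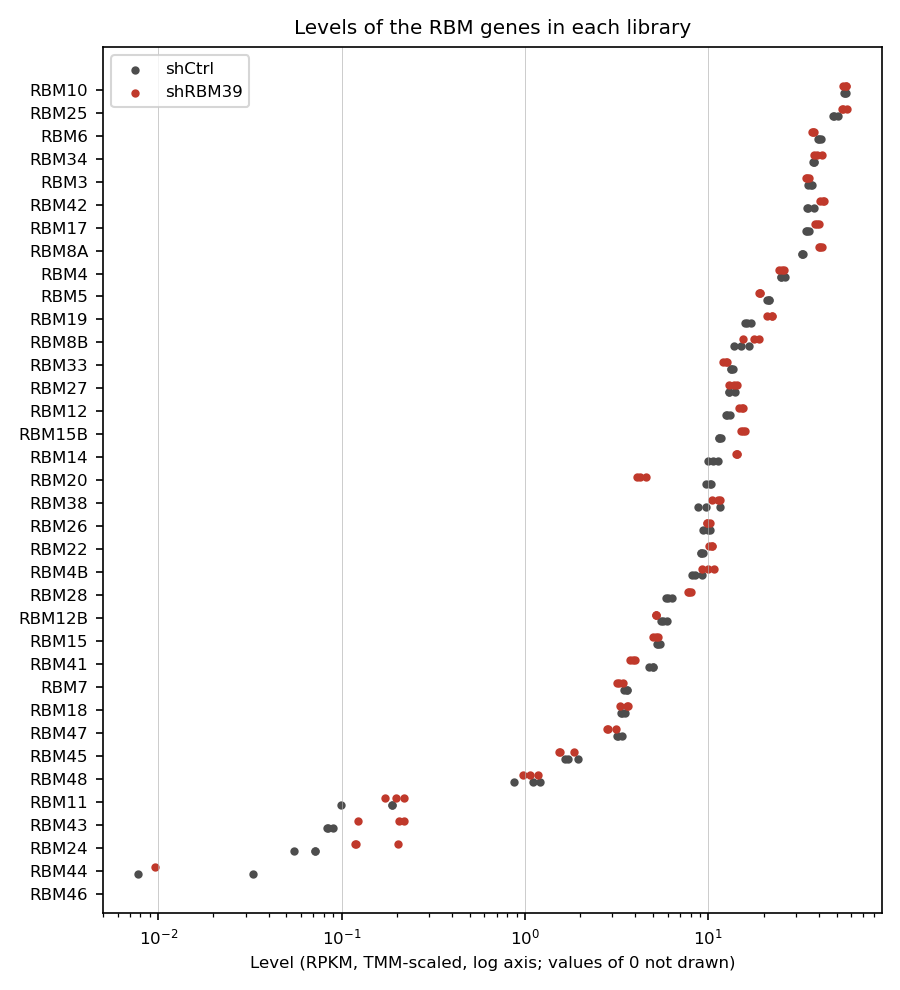
Level of each RBM gene in each of the 6 libraries, in RPKM on a log axis, ordered by the shCtrl mean, with shCtrl in grey and shRBM39 in red. RBM10 is at the top at 55.7 RPKM in shCtrl, RBM46 has no point because it had 0 counts, and RBM20 shows the clearest gap between groups, from 10.1 to 4.29 RPKM.

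Next, the members were compared between shRBM39 and shCtrl. Of the 32 tested, 19 passed the threshold of 0.05 on the adjusted p (edgeR quasi-likelihood fit; 59.375%), against 59.1% of all 18243 genes tested, so the share of members called was close to the background. In shRBM39, 12 members were higher (37.5%, against 29.2% of all genes) and 7 were lower (21.875%, against 29.9%). These counts include RBM43, which passed the filter on low counts only through shRBM39, the group where it was high. Without it, a count added after the data were seen, 18 of 31 members were called (58.1%), 11 of them higher (35.5%). The values of the groups did not overlap for 19 members (59.375%, against 63.3%). The median log2 fold change of the members was 0.04, against -0.01 over all genes, and the median absolute change was 0.16, against 0.30. RBM20 and RBM43 had both a call and an absolute log2 fold change of at least 0.5, which is 6.25% of the members against 25.3% of all genes, and RBM20 alone remains where RBM43, at under 1 CPM on average in both groups, is set aside. Above a mean level of 5 CPM, a limit chosen after the data were seen, 18 of 30 members were called, against 69.5% of 12058 genes. Of these genes, 21.3% had both a call and an absolute log2 fold change of at least 0.5, and of the 30 members only RBM20 did. The medians were not taken at matched levels. The direction of the small changes depended on how libraries were scaled. With library totals alone, the median over all genes moved by -0.12, 13 members were lower and 8 higher, and the higher share of called members was 38.1% in place of 63.2%. Of all 18243 genes, 7371 were lower and 3775 higher under that scaling. The higher share of all called genes was then 33.9% in place of 49.4%, so the shift was not particular to the members. RBM3 (-0.17), RBM4 (-0.14), RBM7 (-0.24), RBM10 (-0.12), RBM15 (-0.17) and RBM26 (-0.11) were called lower only there or under upper-quartile scaling, and RBM4B (0.08), RBM17, RBM22 and RBM25 lost their calls. As in any bulk measurement, less RNA per cell and fewer cells with the transcript cannot be told apart.

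**Figure D2:**
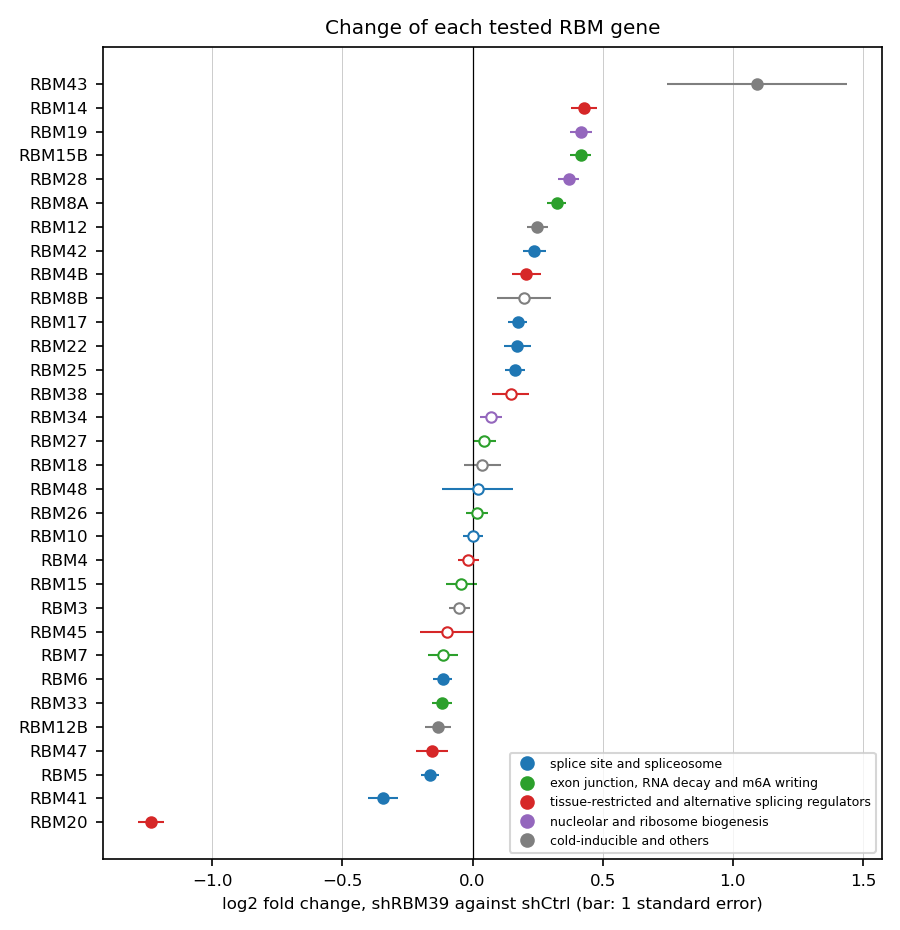
log2 fold change of the 32 tested RBM genes, shRBM39 against shCtrl, with 1 SE, coloured by role; filled points had an edgeR adjusted p under 0.05. RBM20 stands alone on the left at -1.24, RBM43 on the right at 1.09 has a wide error, and the other 30 lie between -0.5 and 0.5.

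Among the tissue-restricted members and regulators of alternative splicing, 7 of 11 were tested, 2 were higher, 2 were lower and 3 were not called. RBM20 (chromosome 10, 110644397 to 110839469, plus strand) was at 79.2, 83.0 and 84.7 CPM in shCtrl and at 33.3, 37.2 and 34.5 CPM in shRBM39. Every shRBM39 library was thus below every shCtrl library, by a wide margin. The log2 fold change was -1.24 (SE 0.05, edgeR adjusted p 4.4e-21), a decrease of 57.5%. It was called under each alternative run, between -1.36 and -1.20, also when tested against an absolute log2 fold change of 0.5, where it was the 1 member still called. No exon base of RBM20 was shared with another gene of the annotation.

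RBM14, a nuclear coactivator found in paraspeckles, moved the other way. It was at 39.2, 44.2 and 41.8 CPM in shCtrl and at 55.7, 56.1 and 56.7 CPM in shRBM39, and its log2 fold change was 0.43 (SE 0.05, edgeR adjusted p 2.5e-09). The groups did not overlap. RBM14 lies next to RBM4 on chromosome 11, and a readthrough gene, RBM14-RBM4, shares 11.0% of the exon bases of RBM14 and 32.6% of those of RBM4. The readthrough gene was at 141 CPM in shCtrl and 146 CPM in shRBM39 and was not called (log2 fold change 0.05, edgeR adjusted p 0.267). Of the exon bases of the readthrough gene itself, 78.7% are shared, 61.9% with RBM4 and 16.8% with RBM14. How reads from these stretches were counted is not known, so its level and change cannot be taken as a separate measurement. RBM4, which regulates alternative exons, was not called either (-0.02, edgeR adjusted p 0.744). Its paralog RBM4B was higher, at 35.3, 36.4 and 40.1 CPM against 43.1, 46.2 and 39.9 CPM (0.21, SE 0.06, edgeR adjusted p 0.0019), with the shRBM39 replicate 3 inside the shCtrl range. RBM4 shares 48.4% of its exon bases with other genes, including 590 bases with RBM4B on the opposite strand. RBM47, an epithelial RNA-binding protein that acts as a cofactor of RNA editing, was slightly lower (-0.16, SE 0.06, edgeR adjusted p 0.0258). That call was lost in DESeq2 (-0.15), without a filter on low counts (-0.15) and without shCtrl replicate 3 or shRBM39 replicate 1 or 3 (all -0.13). RBM38, a p53 target that acts on mRNA stability, had 0.15 (adjusted p 0.0741) and was not called. It was called without shCtrl replicate 1 (0.27), without shRBM39 replicate 3 (0.19) and without a filter on low counts (0.16), and was at 0.06 without shCtrl replicate 3. RBM45, known from the nervous system, had -0.10 and was not called.

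All 9 splice site and spliceosome members were tested, and 4 were higher, 3 lower and 2 not called. The higher ones changed little. RBM42, a component of the tri-snRNP, had a log2 fold change of 0.24 (SE 0.04, edgeR adjusted p 1.5e-05). RBM17, which binds 3′ splice site factors, had 0.17, RBM22, which contacts the U6 snRNA in the active spliceosome, 0.17, and RBM25 0.16. The calls of RBM17, RBM22 and RBM25 were lost with library totals alone, at 0.05, 0.05 and 0.04. RBM42 was still called there, at 0.11.

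Of the 3 lower members, RBM41 had the largest difference. It encodes a protein of the minor spliceosome, which removes the rare U12-type introns. RBM41 was at 28.9, 30.5 and 30.5 CPM in shCtrl and at 22.9, 23.6 and 24.3 CPM in shRBM39, a log2 fold change of -0.34 (SE 0.06, edgeR adjusted p 5.09e-06). The groups did not overlap, and no exon base was shared with another gene. RBM48, the other minor spliceosome member, had 0.02 (adjusted p 0.914), with between 3.79 and 5.23 CPM in all libraries. RBM5 and RBM6, neighbours on chromosome 3 that are often lost together in tumours, were both lower. RBM5 was at 218, 222 and 223 CPM against 195, 198 and 198 CPM (-0.16, SE 0.04, edgeR adjusted p 0.000227). RBM6 was at 299, 289 and 294 CPM against 276, 271 and 268 CPM (-0.11, SE 0.04, edgeR adjusted p 0.0070). RBM5 shares 21.2% of its exon bases with other genes, antisense RNAs among them, and RBM6 shares 6.24%, all of it with RBM5, so the separation of their reads depends on the counting. RBM10, the closest relative of RBM5, had a log2 fold change of 0.00 (SE 0.04), and its sign turned under several scalings.

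Of the 7 members of the exon junction complex, RNA decay and m6A writing group, 2 were higher, 1 lower and 4 not called. RBM8A, which encodes the exon junction core protein Y14, was at 181, 182 and 183 CPM in shCtrl and 226, 232 and 225 CPM in shRBM39. Its log2 fold change was 0.32 (SE 0.04, edgeR adjusted p 2.05e-09). The shCtrl libraries differed by less than 2 CPM from each other, and the groups did not overlap. RBM8A shares 26.9% of its exon bases with other genes, 15.4% with GNRHR2 on the opposite strand, which had a log2 fold change of -0.02. RBM8B, a gene of 525 exon bases whose sequence is nearly that of RBM8A, had 0.20 (adjusted p 0.0961), and was called without shCtrl replicate 1 or shRBM39 replicate 3 (both 0.28). How reads were split between these copies is not known.

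RBM15 and RBM15B bring the m6A writer to its targets. RBM15B was at 78.3, 75.6 and 76.2 CPM in shCtrl and 105, 102 and 99.7 CPM in shRBM39, a log2 fold change of 0.42 (SE 0.04, edgeR adjusted p 1.15e-10). RBM15 was at 24.4, 25.3 and 24.9 CPM against 24.3, 23.4 and 24.7 CPM, a log2 fold change of -0.04 (adjusted p 0.557). RBM15B rose with no overlap while the RBM15 values were mixed between groups, and both promoters held CACGTG. RBM15B shares 1325 of its 6641 exon bases with DCAF1 on the opposite strand, which was itself higher (0.25, edgeR adjusted p 8.63e-06). Whether the counts were taken by strand was not given in the sources used here, so reads from this stretch cannot be assigned with certainty to either gene.

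The decay members changed little. RBM7, which binds RNA in the nuclear exosome targeting complex, had -0.11 (adjusted p 0.0967) and was called with library totals alone (-0.24) and upper-quartile scaling (-0.15). RBM26 and RBM27, the paralogs of the polyadenylated RNA decay pathway, had 0.02 and 0.04 and were not called. RBM27 shares 45.4% of its exon bases, 2989 bases, with a transcript of 3311 bases on the same strand. That transcript had 0.05 and was not called. Most of it lies within RBM27 exons, so the 2 values are not separate measurements. RBM33, known to bind m6A-marked RNA and the demethylase ALKBH5, was at 176, 179 and 175 CPM against 166, 165 and 157 CPM, without overlap (-0.12, SE 0.04, edgeR adjusted p 0.0071).

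**Figure D3:**
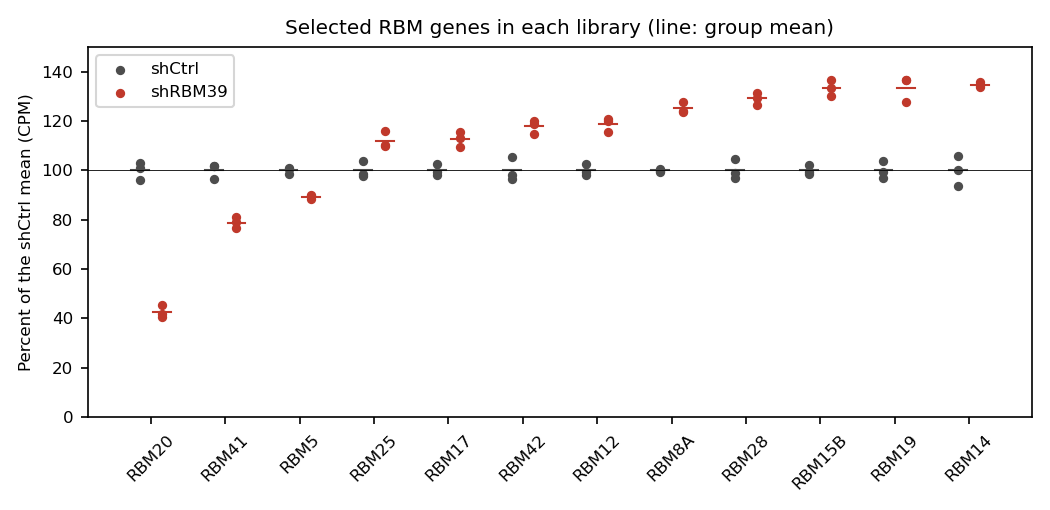
Scaled counts of 12 RBM genes in each library, as a percentage of the shCtrl mean of the gene, with shCtrl in grey, shRBM39 in red and a line at each group mean. RBM20 is far below the shCtrl line in each shRBM39 library, RBM41 and RBM5 are a little below it, and the other 9 are above it without overlap between the groups. The 12 are a selection of the called members. RBM22, RBM43 and RBM4B, called higher, and RBM6, RBM33, RBM12B and RBM47, called lower, are not drawn.

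Of the 3 nucleolar and ribosome biogenesis members, 2 were higher and 1 was not called. RBM19 was at 101, 96.2 and 93.6 CPM in shCtrl and at 132, 132 and 123 CPM in shRBM39, a log2 fold change of 0.42 (SE 0.04, edgeR adjusted p 1.2e-10). RBM28 was at 101, 95.4 and 93.4 CPM against 125, 127 and 122 CPM, a log2 fold change of 0.37 (SE 0.04, edgeR adjusted p 1.23e-09). Both were above the shCtrl range in every shRBM39 library. RBM34, the third member, was not called (0.07, adjusted p 0.138) except without shRBM39 replicate 1 (0.11), and 51.5% of its exon bases are shared with ARID4B on the same strand, which was lower (-0.12, edgeR adjusted p 0.0061).

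In the remaining group of 6, the cold-inducible RBM3 was not called, with 137, 135 and 131 CPM against 126, 129 and 133 CPM and a log2 fold change of -0.05 (adjusted p 0.268). RBM12 was higher, at 83.9, 87.6 and 85.0 CPM against 103, 103 and 98.8 CPM (0.25, SE 0.04, edgeR adjusted p 3.09e-06). RBM12 lies 38652 bases from RBM39, the targeted gene, on chromosome 20, and shares 8.58% of its exon bases with CPNE1 on the same strand, which was also higher (0.28). Its relative RBM12B was lower (-0.13, SE 0.05, edgeR adjusted p 0.0200), a call that was lost in DESeq2 (-0.12), without a filter (-0.12) and without shCtrl replicate 2 (-0.10) or shRBM39 replicate 1 or 2 (both -0.13). RBM12B shares 38.8% of its exon bases with other genes. Of its exon bases, 28.5% are shared with FAM92A1 on the opposite strand, which was higher (0.36, edgeR adjusted p 0.000252). RBM18 had 0.04 and was not called. RBM43 had 8, 9 and 8 counts in shCtrl and 19, 10 and 20 in shRBM39. These values did not overlap, but the lowest shRBM39 library was 1 count above the highest of shCtrl. Because RBM43 passed the filter only through the group where it was high, its log2 fold change of 1.09 (SE 0.34) is given as a description, and it was not tested where at least 10 counts were required in every library.

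The scaling between libraries cancels in a ratio of 2 genes from the same library. Ratios of counts were therefore taken for 8 pairs of related genes, chosen after their values were seen. In 6 of the 8 pairs the groups did not overlap. The share of 63.3% given above is for scaled values of single genes. It is not a background for ratios, and none was computed for them. Since the pairs were picked with their values known, the ratios are a description with no test. The ratio of RBM15B to RBM15 was 3.21, 2.98 and 3.06 in shCtrl and 4.30, 4.39 and 4.04 in shRBM39. The ratio of RBM12 to RBM12B was 1.94, 1.94 and 2.03 against 2.61, 2.59 and 2.49. Both ratios were higher in every shRBM39 library. The ratio of RBM10 to RBM5 went from a mean of 0.983 ± 0.0173 to 1.10 ± 0.0334 (SD, n = 3), that of RBM4B to RBM4 from 0.300 ± 0.0238 to 0.350 ± 0.0212 and that of RBM28 to RBM34 from 0.825 ± 0.0276 to 1.02 ± 0.0703. The ratio of RBM8A to MAGOH, which encodes the partner of Y14 in the exon junction core, went down, from 2.66 ± 0.0481 to 2.00 ± 0.157. RBM6 to RBM5 (1.33 ± 0.0370 and 1.38 ± 0.0303) and RBM27 to RBM26 (0.880 ± 0.0804 and 0.895 ± 0.0459) overlapped between groups. Exon bases shared with other genes, among them 590 between RBM4 and RBM4B and 38.8% of RBM12B, also enter these ratios. How their reads were counted is not known.

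**Figure D4:**
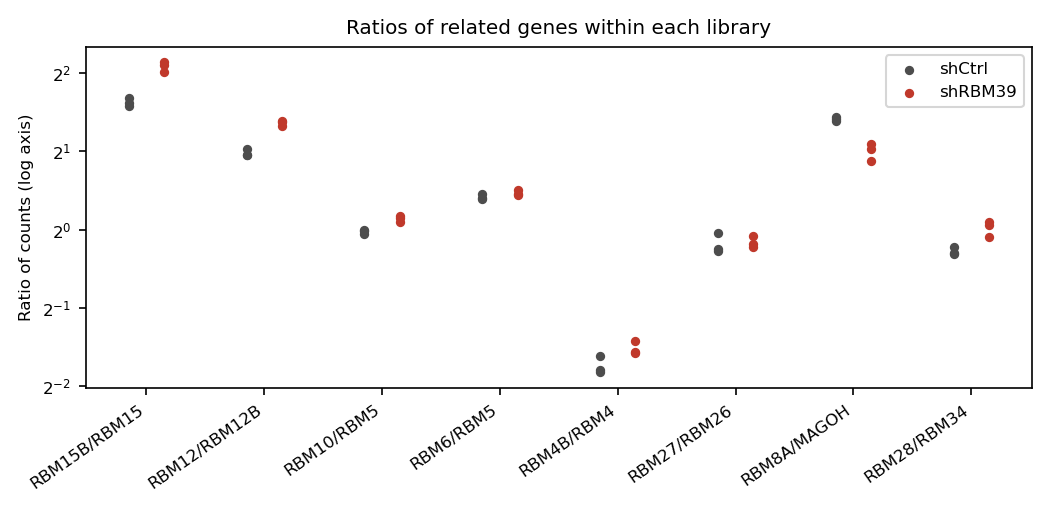
Ratio of the counts of 2 related genes in each library, on a log axis, with shCtrl in grey and shRBM39 in red. The pairs were chosen after their values were seen. The groups are apart for 6 of the 8, with RBM8A to MAGOH lower and the other 5 higher in shRBM39, and they overlap for RBM6 to RBM5 and RBM27 to RBM26.

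Lists of genes that work with the members were then read in the same fit. Of 30 such genes 29 were tested and 22 were called (75.9%, against 59.1% of all genes), 13 higher (44.8%, against 29.2%) and 9 lower (31.0%, against 29.9%). The lists were chosen with results of these data known, so nothing is read from these shares. Among 5 partners in the exon junction complex, 4 were higher and 1 lower, with a median log2 fold change of 0.74. MAGOH was at 69.3, 68.6 and 67.6 CPM against 106, 114 and 123 CPM (0.74, SE 0.05, edgeR adjusted p 1.47e-15). MAGOHB (0.83), the helicase gene EIF4A3 (0.77) and RNPS1 (0.28) were also higher, and CASC3 was lower (-0.19). RBM8A thus moved in the direction of MAGOH, MAGOHB and EIF4A3, at 0.32.

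Of 6 partners in the m6A writer, 3 were higher, 1 lower and 2 not called. The methyltransferase gene METTL3 (0.22), the adaptor WTAP (0.23) and ZC3H13 (0.27) were higher, CBLL1 was lower (-0.12), and the other 2 were not called. The call of METTL3 was lost with library totals alone (0.09), and that of CBLL1 in DESeq2 (-0.11). The value of RBM15B exceeded those of all 6 and that of RBM15 lay within their range, without a test of these differences.

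Of 5 genes listed for the nuclear exosome and its adaptors, 3 were higher and 2 lower. ZFC3H1, a core protein of the pathway in which RBM26 and RBM27 act, was lower (-0.49, SE 0.05, edgeR adjusted p 6.12e-11), and ZCCHC8, the scaffold that holds RBM7, was lower (-0.27, SE 0.07, edgeR adjusted p 0.0020). MTREX (0.11), PABPN1 (0.10) and EXOSC10 (0.10) were higher in the TMM-scaled fit, and their signs turned with library totals alone. Among 8 minor spliceosome partners 2 were higher, 2 lower and 4 not called. SNRNP25 was at 57.5, 56.0 and 55.3 CPM against 121, 117 and 112 CPM (1.05, SE 0.04, edgeR adjusted p 1.24e-20), PDCD7 was higher (0.27), SNRNP48 was lower (-0.68, SE 0.05, edgeR adjusted p 2.14e-14), and ARMC7, the partner of RBM48, was lower (-0.22) but not called without shCtrl replicate 2 (-0.15). RBM41 at -0.34 and RBM48 at 0.02 lay between SNRNP48 and SNRNP25. Of 6 RBM-named genes outside the rule, RBMX (-0.38), RBMXL1 (-0.29) and RBMS2 (-0.39) were lower, RBMX2 was higher (0.18, lost with library totals alone at 0.05), 1 was not called, and RBMS3 was too low to be tested.

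**Figure D5:**
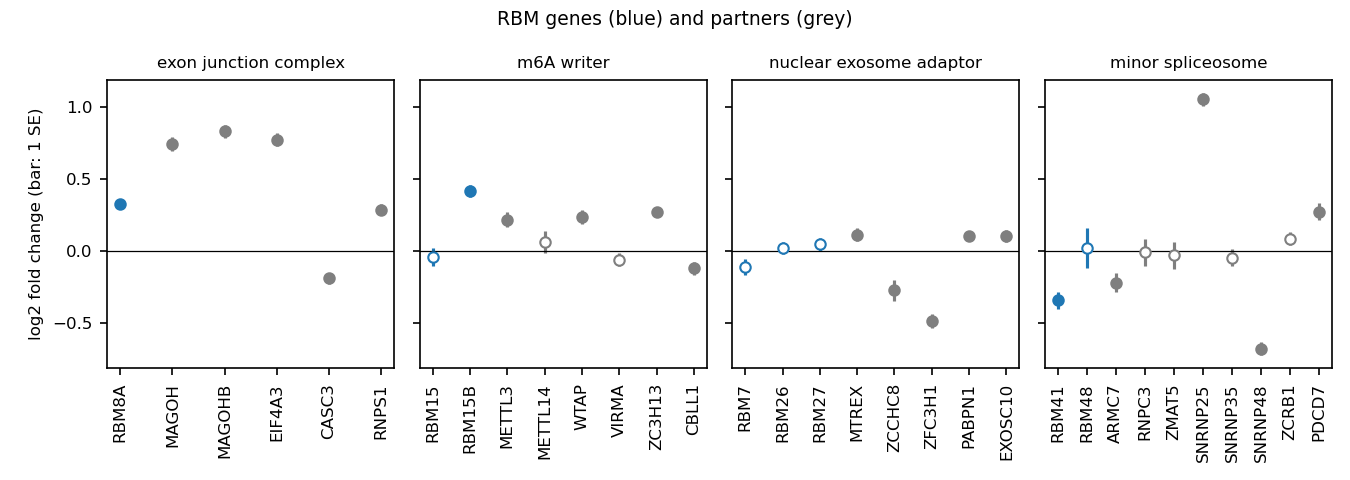
log2 fold change, with 1 SE, of RBM genes in blue and of partners in the same complex in grey, in 4 panels; filled points had an edgeR adjusted p under 0.05. In the exon junction panel RBM8A at 0.32 is below MAGOH at 0.74, in the m6A panel RBM15B at 0.42 is the highest point, and in the minor spliceosome panel SNRNP25 at 1.05 and SNRNP48 at -0.68 are the extremes.

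Finally, the splicing records of the members were examined. The event table lists 1582 records for 1198 gene symbols, taken from 31743 events tested by the study, of which 26540 were cassette exons. The listed events had already been selected for a difference between the groups. The differences, permutation p-values and shares without overlap given below are therefore a description. It holds 2 records for the members, 1 each for RBM33 and RBM11, and 0 for RBM39 or RBM23. That is 2 of the 35 members with at least 1 count, against 3.56% of 33685 symbols with at least 1 count. Of those symbols 18243 passed the filter on low counts, and 32 of the members did. The members were thus more often expressed, and nothing is read from the 2 shares. The table names its groups only 1 and 2 and gives no key to the hairpins, so these names are kept and no direction with respect to RBM39 is drawn.

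The RBM33 exon printed above had 33, 37 and 30 inclusion reads and 1, 4 and 3 skipping reads in group 1. In group 2 it had 46, 42 and 39 inclusion reads and 1, 0 and 2 skipping reads. The inclusion level, recomputed from reads per effective length, was 0.927, 0.781 and 0.794 in group 1 and 0.947, 1 and 0.883 in group 2. The exon was mostly included in each library and the groups overlapped, since the highest value of group 1 exceeded the lowest of group 2. The difference of the means was -0.11 (exact two-sided permutation p = 0.2, where 0.1 is the smallest possible), and -0.05 without the length correction. It rests on 8 skipping reads in group 1 and 3 in group 2. Over all listed records, 57.6% had levels that did not overlap between the groups.

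The RBM11 exon rests on still fewer reads, with 3, 0 and 3 inclusion reads and 1, 2 and 0 skipping reads in group 1. Group 2 had 5, 1 and 2 inclusion reads and 0 skipping reads. The levels were 0.571, 0 and 1 in group 1 and 1 in each library of group 2, so the groups overlapped (difference -0.48, exact two-sided permutation p = 0.4). A library with 1 read sets its level to 0 or 1. With RBM11 at 0.159 ± 0.0512 RPKM in shCtrl, a difference in the inclusion of this exon was not detectable at this depth.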

How the data were processed

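The study sequenced mRNA from 3 shCtrl and 3 shRBM39 libraries of SW480 cells, made with a stranded kit that marks molecules with unique identifiers. Per the labels' processing notes, the authors used Trimmomatic 0.36, STAR 2.5.3a, featureCounts of Subread 1.5.1 and edgeR 3.12.1 on GRCh38. How reads of overlapping genes, repeats, strands and identifiers were handled is not given in the sources used here. The deposited count table holds raw read counts per gene. The control columns are named NC and were taken as shCtrl, the only control group. The deposited RPKM table was not used here, since RPKM was recomputed from the counts. In the deposited splicing table, made with rMATS, read counts per event were used, and the inclusion level was recomputed as a fraction. Its columns of p-values, false discovery rates and group differences hold the authors' own comparison and were not used.

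Genes passing filterByExpr (18243) were fitted with edgeR 4.0.16 in R 4.3.3 (TMM, quasi-likelihood test, Benjamini-Hochberg over all genes tested, called under 0.05), with group as the only term. Replicates differed by 2.11 to 4.21 times the sampling variance, so none was a copy of another. Alternatives were DESeq2 1.42.0, other scalings and filters, a replicate block, a test against 0.5 and leaving out each library. The fit was tested on simulated data, where edgeR recovered 84% of 2-fold changes and 75% of the smaller ones. DESeq2 recovered 74% and 64% there. A gene that was not called can thus still have changed. The members, the roles and the lists were chosen with earlier results of these data known. Values per library are given for members with a call, an absolute log2 fold change of at least 0.5 and no overlap, and for members with a splicing record. Per-library values of other members were chosen after they were seen. Exon overlaps were computed from the exon coordinates in the deposited table. Promoters are RefSeq's, and exon numbers come from GENCODE v44. Intervals of precision are those of the fit, and a biological coefficient of variation of 0.035 was estimated over all genes.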

Additional observations from a re-analysis of the deposited data

How the results depend on the processing

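Tested against an absolute log2 fold change of 0.5, 1 member was called (0 higher, 1 lower), 5 partners (4 higher, 1 lower) and 2232 genes in all (1031 higher, 1201 lower). With library totals alone 13 members were lower and 8 partners higher, and of all genes 7371 were lower and 3775 higher. There the signs turned for RBM10 (-0.12), RBM18 (-0.086), RBM26 (-0.11), RBM27 (-0.079), RBM34 (-0.052), RBM48 (-0.10), MTREX (listed as SKIV2L2, -0.011), PABPN1 (-0.021) and EXOSC10 (-0.023). With upper-quartile scaling they turned for RBM10 (-0.032), RBM26 (-0.016) and RBM48 (-0.013), and with at least 10 counts in every library for RBM10 (-0.0066). Leaving out each library in turn, the sign turned within the ranges of RBM10 (-0.0057 to 0.027), RBM26 (-0.022 to 0.046), RBM4 (-0.038 to 0.014), RBM48 (-0.099 to 0.12) and the log2 difference of the ratio of RBM27 to RBM26 (-0.019 to 0.10), none of them called in the fit on all libraries, and 18 to 21 members were called. Without the length, RBM10 ranked 5 and RBM25 1 in shCtrl. DESeq2 called 17 members. The causes were not tested. Same-numbered libraries did not deviate together (correlations between -0.037 and 0.024 over all pairings), so the numbers do not pair the samples. With the replicate block 20 members were called, RBM38 being the one gained (0.15), and RBM39 had -0.67. RBM members under about 1 CPM could not be judged at this depth.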
